A study of Mus musculus with 3 samples.

Results

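The BCL-2 family of survival and death genes was followed in CD4+ T cells cultured with IL-21, with IL-6 plus TGFb1 (written IL-6/TGFb1 below), or with medium. The set was defined by the known function of its genes, though earlier results of these data were known when it was chosen. It held the 10 genes Bcl2, Bcl2l1, Mcl1, Bax, Bak1, Bcl2l11, Bid, Bbc3, Pmaip1 and Bad. A gene was read from the probe set annotated with exactly that symbol, and 9 of the 10 had such a probe set, out of 19935 genes on the array. Bax, which encodes a pore-forming protein, had none and was not analysed here. Each of the 9 had a single probe set, so no member could be checked against another probe set of its own.

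The cells were naive CD4+ T cells of wild-type C57BL/6 mice, 8 weeks of age. By its treatment label the IL-21 culture received IL-21, the IL-6/TGFb1 culture both of those cytokines, and the medium culture vehicle. Each culture was measured on 1 array, and the labels used here give neither cytokine doses, the duration, the number of mice nor any stimulus of the T cell receptor. With 1 array per culture there was no replicate and no test, and every difference compares 2 arrays.

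BCL-2 family proteins decide whether the outer mitochondrial membrane is breached. Bax and Bak proteins form pores that release cytochrome c and start the caspase cascade, the anti-apoptotic members hold them in check, and BH3-only proteins bind the anti-apoptotic members or activate Bax and Bak. In T cells, Bcl-2 and Mcl-1 are known to sustain survival under cytokine signals, and Bim, the product of Bcl2l11, is known for removing T cells when an immune response ends. Many of these proteins are controlled by degradation, phosphorylation or cleavage, which RNA levels do not show.

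Differences are given as log2(intensity + 1) on the first array minus the second. All 9 members reached the brightness filter, an intensity of 187 on at least 1 array, as did 11003 genes in all. The only measure of error within these arrays was the gap between both probe sets of a gene. Over 474 genes with 2 bright probe sets, the 95th percentile of that gap was 0.41 for IL-21 minus medium, 0.37 for IL-6/TGFb1 minus medium, and 0.35 for IL-21 minus IL-6/TGFb1. This leaves out the spread between cultures, which could not be estimated. The T cell label held on all arrays, where the 10 measured CD4+ T cell markers, such as Cd3e and Cd4, had intensities between 1710 and 6858. Of 20 measured markers of CD8+ T, B, myeloid and NK cells, 3 reached the brightness filter, and the brightest was the CD8 chain gene Cd8b1, at 731 with IL-21, 616 with IL-6/TGFb1 and 810 with medium. The summed intensity of the CD8+ T cell markers was 876, 772 and 973 in that order of cultures, that of B cell markers 883, 876 and 870, that of myeloid markers 890, 880 and 881, and that of NK cell markers 304, 382 and 273. The last moved mostly through the receptor gene Klrd1, which was below the brightness filter at 98.1, 173 and 66.0. The part of these cells in the results below was not tested, and fewer cells of a type cannot be told apart from less RNA per cell.

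Setting IL-21 against medium asks whether survival or death genes shifted when this cytokine was added. No member was 2-fold apart between these arrays, and 0.591% of all compared genes were. Mcl1 and Bcl2l11 were the members furthest above medium, at 0.44 and 0.40, and Bid was the furthest below, at -0.25. None was at least 0.5 log2 units higher, where 3.02% of compared genes were, or at least 0.5 lower, where 0.809% were. Of the 9 members, 4 were above medium, 4 below and 1 exactly equal, and their median was 0.00, against 0.04 over all compared genes.

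Setting IL-6/TGFb1 against medium asks the same of the cytokine pair used to obtain Th17 cells. Again no member was past 2-fold, against 1.04% of compared genes. Bid, at -0.41, was furthest below, followed by Bcl2l11 at -0.24, and the members furthest above were Mcl1 at 0.18 and Bcl2 at 0.15. None was at least 0.5 higher (3.64% of compared genes) or lower (1.24%). The members' median was -0.05, with 3 above medium and 6 below, against a median of 0.02 over all compared genes. This comparison and the one of IL-21 with medium share the medium array.

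The treated cultures differ in the STAT3-activating cytokine as well as in TGFb1. Between them, Bcl2l11 stood furthest from 0, at 0.64 higher with IL-21. No member was past 2-fold (0.454% of compared genes), and Bcl2l11 was the only member of 9 at least 0.5 higher, against 1.27% of compared genes. No member was at least 0.5 lower, against 0.754%. The members' median was 0.00, as it was over all compared genes, with 4 members higher and 5 lower with IL-21.

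**Figure D1:**
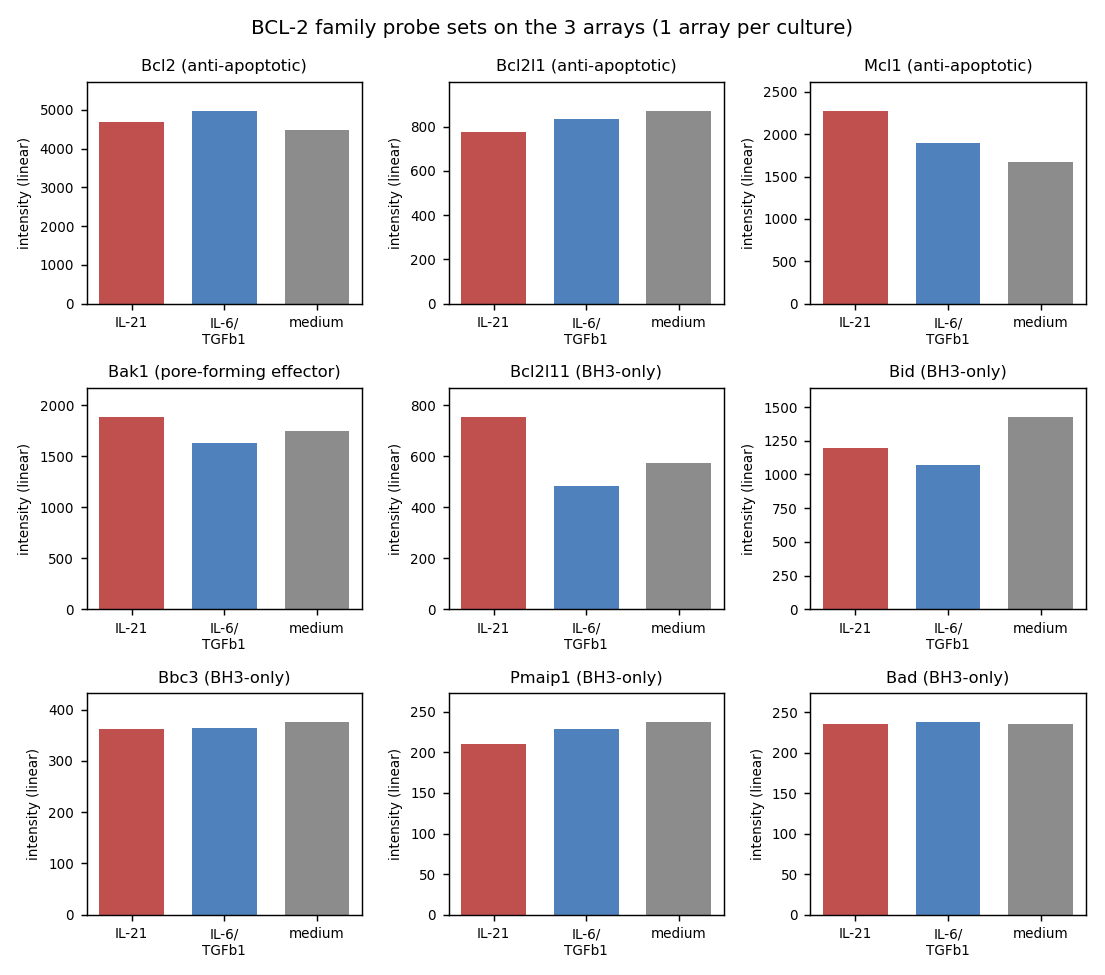
Intensity on a linear scale (vertical axis from 0, its own scale in each panel) of the 9 measured BCL-2 family genes in the IL-21, IL-6/TGFb1, and medium cultures, with 1 bar for each array and no error bars because there was 1 array per culture. The Bcl2l11 bars stand at 754 (IL-21), 483 (IL-6/TGFb1) and 572 (medium), while the bars of Bad and Bbc3 are nearly level.

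Among the anti-apoptotic genes, Mcl1 encodes a short-lived protein that restrains Bak and the BH3-only proteins. Its intensity was 2269 with IL-21, 1890 with IL-6/TGFb1, and 1672 with medium. It was thus highest with IL-21 and lowest with medium. The fold over medium was 1.36 with IL-21 and 1.13 with IL-6/TGFb1. The IL-21 difference of 0.44 lay just past the 95th percentile of the probe set gap, though not with quantile normalization, which gave 0.38, and 5.50% of compared genes were at least as far from 0. For the difference of 0.18 with IL-6/TGFb1 that share was 32.6%, well inside the bulk of genes. Between the treated cultures Mcl1 was 0.26 higher with IL-21, a distance reached by 7.62% of compared genes.

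Bcl2 encodes the founding member of the family, kept high in naive and memory T cells. Its intensity was 4687 with IL-21, 4964 with IL-6/TGFb1, and 4481 with medium. The spread over the cultures was small, with differences from medium of 0.06 and 0.15 and a difference of -0.08 between the treated cultures. At least 39.5% of compared genes were as far from 0 in each of these comparisons.

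Bcl2l1, whose main product is Bcl-xL, an anti-apoptotic protein induced on T cell activation, had intensities of 778 with IL-21, 834 with IL-6/TGFb1, and 869 with medium. It was lowest with IL-21, at -0.16 against medium, and was -0.06 against medium with IL-6/TGFb1. These values were within the probe set gap, and 34.9% and 67.5% of compared genes were at least as far from 0. The gene also makes a short, pro-apoptotic splice form, which a single intensity per gene cannot separate. Pairs of members set against each other here and below were chosen after their values were seen. Within the arrays, Mcl1's difference from medium was 0.60 above that of Bcl2l1 with IL-21 and 0.24 above it with IL-6/TGFb1. The 95th percentile of the probe set gap was 0.41 and 0.37 in these comparisons, so the IL-6/TGFb1 value lay within it.

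Bak1 was the measured pore-forming gene, and its product sits in the outer mitochondrial membrane. Its intensity was 1886 with IL-21, 1624 with IL-6/TGFb1, and 1751 with medium. Medium lay between the treated cultures, with differences of 0.11 and -0.11 from it. The treated cultures differed by 0.22, which was within the probe set gap, and 11.9% of compared genes were at least as far from 0.

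Of the BH3-only genes, Bcl2l11 encodes Bim, which binds all the main anti-apoptotic proteins and can activate Bax and Bak directly. Its intensity was 754 with IL-21, 483 with IL-6/TGFb1, and 572 with medium. The order differed from that of Mcl1, since medium lay between the treated cultures. Bcl2l11 was 1.32-fold of medium with IL-21 (0.40) and 0.844-fold with IL-6/TGFb1 (-0.24), and both of these differences were within the probe set gap. The treated cultures differed 1.56-fold, and 1.18% of compared genes were at least as far from 0 as its difference of 0.64, which was past the 95th percentile of the gap. That difference does not use the medium array. Within the arrays, the difference of Bcl2l11 between the treated cultures was 0.73 above that of Bcl2, 0.75 above that of Bcl2l1 and 0.38 above that of Mcl1. Against medium with IL-21, Bcl2l11 and Mcl1 differed from each other by -0.04, as both were higher to a like extent. They were less alike with quantile normalization, at 0.28 for Bcl2l11 and 0.38 for Mcl1.

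Bid encodes a protein that caspase-8 cleaves to link death receptors to mitochondria. Its intensity was 1197 with IL-21, 1074 with IL-6/TGFb1, and 1428 with medium. Both treated cultures were below medium, at 0.838-fold (-0.25) and 0.752-fold (-0.41). The IL-6/TGFb1 value was past the 95th percentile of the probe set gap, and 7.27% of compared genes were at least as far from 0, while for IL-21 the share was 18.8%. The treated cultures differed by 0.16, within the gap. Within the arrays Bid and Mcl1 changed unequally. The difference of Bid minus that of Mcl1 was -0.69 with IL-21 against medium and -0.59 with IL-6/TGFb1 against medium.

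Bbc3 and Pmaip1, which encode Puma and Noxa, are BH3-only genes known as p53 targets, and Noxa acts mainly on Mcl-1. Bbc3 had intensities of 363 with IL-21, 364 with IL-6/TGFb1, and 375 with medium. Pmaip1 had 210, 228 and 237 in the same order. Both were slightly below medium in both treated cultures, at -0.05 and -0.04 for Bbc3 and at -0.17 and -0.05 for Pmaip1. At least 32.2% of compared genes were as far from 0 as these. Bad, whose product is held inactive by growth factor dependent phosphorylation, had 235 with IL-21, 238 with IL-6/TGFb1, and 235 with medium. The values of Bad with IL-21 and with medium were exactly equal in the deposited table, as were those of 19.1% of all probe sets in this pair of arrays. The source of such ties was not tested. Pmaip1 and Bad were not far above the brightness filter, where small differences are least well measured.

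**Figure D2:**
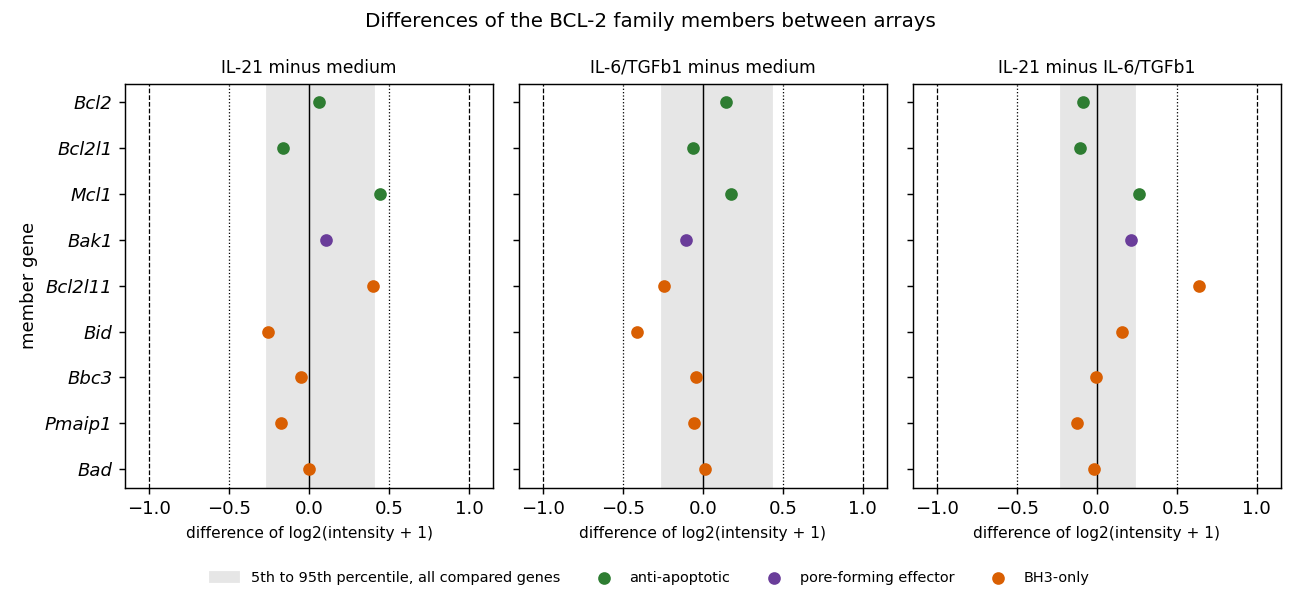
Difference of log2(intensity + 1) (horizontal axis) for the 9 measured members (rows, coloured by role) in the 3 comparisons, with dotted lines at 0.5, dashed lines at 1, and a grey band from the 5th to the 95th percentile of the 11003 compared genes. Bcl2l11 lies outside the band between the treated cultures (0.64), Mcl1 with IL-21 against medium (0.44) and between the treated cultures (0.26), and Bid with IL-6/TGFb1 (-0.41), while Bcl2, Bcl2l1, Bak1, Bbc3, Pmaip1 and Bad lie inside it in each panel.

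Promoter windows of the members were searched for motifs, because IL-21 and IL-6 receptors both signal through STAT3 and because FOXO factors are known to act on Bcl2l11 and Bbc3. RefSeq windows (GRCm38.p6) from 250 bases before to 50 bases after the start site were searched on both strands for the STAT motif TTCNNNGAA, the FOXO motif GTAAACA and the E-box CACGTG, which Myc binds. No motif here overlaps another in a match. Windows were held for 9 of the 10 members, Bax among them, while Pmaip1 was not searched. These 15 windows held no STAT motif, which is in 8.30% of all 32851 windows. The FOXO motif, in 3.65% of all windows, was in 1 window each of Bcl2l11, where it starts 227 bases before the start site, and Bbc3, 167 bases before it on the opposite strand. The E-box, in 7.15% of all windows, was in 1 window each of Bbc3 and Bax. These matches are descriptions and say nothing of binding, and no match says only that these letters are not in the window. The Bcl2l11 and Bbc3 windows are shown for their FOXO match, given in capitals, and the Mcl1 window, in which none of the 3 motifs was found, for its place as the member furthest above medium with IL-21. They lie at chr2:128125788-128126087 (plus strand), chr7:16310011-16310310 (plus strand) and chr3:95658471-95658770 (plus strand).
Bcl2l11: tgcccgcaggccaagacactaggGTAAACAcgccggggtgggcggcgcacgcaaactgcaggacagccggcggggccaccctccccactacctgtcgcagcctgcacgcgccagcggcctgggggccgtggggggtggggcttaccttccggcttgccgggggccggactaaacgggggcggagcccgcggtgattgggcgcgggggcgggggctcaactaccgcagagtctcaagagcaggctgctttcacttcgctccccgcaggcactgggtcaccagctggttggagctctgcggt
Bbc3: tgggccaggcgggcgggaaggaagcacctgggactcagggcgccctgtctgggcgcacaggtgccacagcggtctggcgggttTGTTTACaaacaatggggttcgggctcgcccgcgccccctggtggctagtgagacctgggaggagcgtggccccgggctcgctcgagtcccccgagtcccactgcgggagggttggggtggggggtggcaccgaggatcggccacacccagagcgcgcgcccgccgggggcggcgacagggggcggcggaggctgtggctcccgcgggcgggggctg
Mcl1: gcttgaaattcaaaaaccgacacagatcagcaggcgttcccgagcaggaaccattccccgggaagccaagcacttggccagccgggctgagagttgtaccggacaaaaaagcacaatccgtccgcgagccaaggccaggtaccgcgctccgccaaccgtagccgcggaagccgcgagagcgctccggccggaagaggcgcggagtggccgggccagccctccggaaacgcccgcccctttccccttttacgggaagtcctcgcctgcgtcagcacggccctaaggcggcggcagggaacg
Bbc3, which shares the FOXO motif with Bcl2l11, was within 0.05 log2 units of 0 in all 3 comparisons. With quantile normalization Bbc3 was at -0.14 with IL-21 and at -0.11 with IL-6/TGFb1, each against medium. Foxo3, which encodes a factor of this family, had intensities of 955 with IL-21, 810 with IL-6/TGFb1, and 843 with medium, and a difference of 0.24 between the treated cultures. Foxo1 had 1726, 2068 and 1572 in the same order, and a difference of -0.26 between the treated cultures. Whether FOXO factors had a part in the values of Bcl2l11 or Bbc3 was not tested.

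The further relatives of the family comprised 11 compared genes of 16 listed, of which 2 were at least 0.5 higher with IL-21 than with medium and 1 with IL-6/TGFb1, and none was that much lower in either. Over all compared genes these shares were 3.02% and 3.64% higher, and 0.809% and 1.24% lower. Bnip3, a mitochondrial BH3-related protein known mainly as a mitophagy receptor, had 1867 with IL-21, 1410 with IL-6/TGFb1, and 957 with medium, a difference of 0.96 and of 0.56 from medium. Its other probe set gave 0.97 and 0.55. Its relative Bnip3l had differences of 0.40 and 0.22. Bcl2l14 was dim with medium, at 156, and had 236 with IL-21 and 205 with IL-6/TGFb1, a difference of 0.59 and of 0.39. Bcl2a1c, of the A1 group whose copies are nearly identical in sequence and may share signal, was equal with IL-21 and with medium (828) and at 653 with IL-6/TGFb1 (-0.34). Bok, a Bax-like gene, had a difference of -0.29 in IL-21 minus IL-6/TGFb1. The median of these relatives was 0.00 in each of the 3 comparisons.

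Downstream of the mitochondrial pore, the apoptosome and caspase list had 13 compared genes of 15 listed. Casp6, an executioner caspase gene, had 1797 with IL-21, 1446 with IL-6/TGFb1, and 892 with medium. It was the only compared gene of the lists described here past 2-fold, at 1.01 with IL-21 against medium. The share of all compared genes past 2-fold was 0.591% there, 1.04% with IL-6/TGFb1 against medium and 0.454% between the treated cultures. The Casp6 difference of 1.01 became 0.92 with quantile normalization and 0.998 with log2(value + 16), just under 2-fold in both. Bnip3, at 0.96, passed 2-fold as well with centring of the arrays on their medians (1.03). With IL-6/TGFb1 the difference of Casp6 was 0.70. Apaf1, which encodes the scaffold of the apoptosome, had 1141, 1018 and 737 in the same order, at 0.63 and 0.46 above medium. The gene of cytochrome c, Cycs, was equal with IL-21 and medium and at -0.25 with IL-6/TGFb1. Its other probe sets gave -0.22 and, for a dim one, 0.25, and the mean over its probe sets was -0.07. The mitochondrial protease gene Htra2 was at -0.27 with IL-21 against medium, and the nuclease gene Dffb was 0.29 higher with IL-21 than with IL-6/TGFb1. The list median was 0.08 with IL-21, 0.00 with IL-6/TGFb1, and 0.11 between the treated cultures.

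The inhibitors of apoptosis, proteins that block caspases or their activation, had 5 compared genes of 8 listed, all above medium in both treated cultures by less than 0.5. Of all compared genes, 59.8% lay above medium in the IL-21 culture and 56.3% in the IL-6/TGFb1 culture. Xiap, at 0.06 with IL-6/TGFb1, was at -0.02 with quantile normalization. The list median was 0.22 with IL-21, or 0.11 with quantile normalization, and 0.27 with IL-6/TGFb1. Birc2 (0.34) and Xiap (0.23, or 0.11 with quantile normalization) were furthest above medium with IL-21, and Birc6 (0.37) and Birc5 (0.35, a gene of dividing cells) with IL-6/TGFb1. The dimmer probe set of Birc2 gave 0.07 with IL-21.

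In the death receptor list, with 10 compared genes of 12, Tnfsf10, which encodes the ligand TRAIL, had 526 with IL-21, 285 with IL-6/TGFb1, and 337 with medium. As with Bcl2l11, medium lay between the treated cultures, with differences of 0.64 and -0.24 from it and of 0.88 between them. Ripk3, a kinase of necroptosis, had 1622, 1954 and 1293 in the same order, at 0.33 and 0.60 above medium. The adaptor gene Fadd was at 0.26 with IL-21 (0.14 with quantile normalization), and the receptor genes Tnfrsf1a and Fas at 0.36 and 0.25 with IL-6/TGFb1. The list median was 0.18 with IL-21, 0.09 with IL-6/TGFb1, and -0.03 between the treated cultures.

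Genes that act on BCL-2 family members were mostly close to medium, as were most compared genes. Of 20 compared (24 listed, among them Trp53, which was not analysed here), 1 was at least 0.5 higher with IL-21. None was past 0.5 in the other comparisons. Over all compared genes, 3.02% were at least 0.5 higher and 0.809% lower with IL-21 against medium. These shares were 3.64% and 1.24% with IL-6/TGFb1 against medium, and 1.27% and 0.754% between the treated cultures. Fbxw7, a ubiquitin ligase subunit that targets Mcl-1 for degradation, had 360 with IL-21, 309 with IL-6/TGFb1, and 237 with medium, at 0.60 and 0.38. Its other probe set was below the brightness filter and gave 0.24 and 0.17. Stat3 was at 0.33 and 0.31 above medium, and Stat5a at 0.33 and 0.24. Pim2, a survival kinase, had 6349 with IL-21, 5286 with IL-6/TGFb1, and 7337 with medium, at -0.21 and -0.47. The list median was 0.07 with IL-21 and 0.05 with IL-6/TGFb1, and 0.03 between the treated cultures.

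The p53 target list had 14 compared genes of 17, among them the members Bbc3 and Pmaip1. None was 0.5 away from medium with IL-21, where 3.02% of compared genes were at least 0.5 higher and 0.809% lower. With IL-6/TGFb1, 1 was at least 0.5 lower, where 1.24% of compared genes were. This was Phlda3, an inhibitor of Akt signalling, which had 431 with IL-21, 284 with IL-6/TGFb1, and 453 with medium. Its difference was -0.67 for IL-6/TGFb1 minus medium and 0.60 for IL-21 minus IL-6/TGFb1. Sesn2 was at -0.27 and Trp53inp1 at 0.26 with IL-6/TGFb1, and Ei24 and Zmat3 were at 0.31 and 0.29 with IL-21 (Zmat3 at 0.17 with quantile normalization). The list median was 0.00 with IL-21, -0.08 with IL-6/TGFb1, and 0.10 between the treated cultures.

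**Figure D3:**
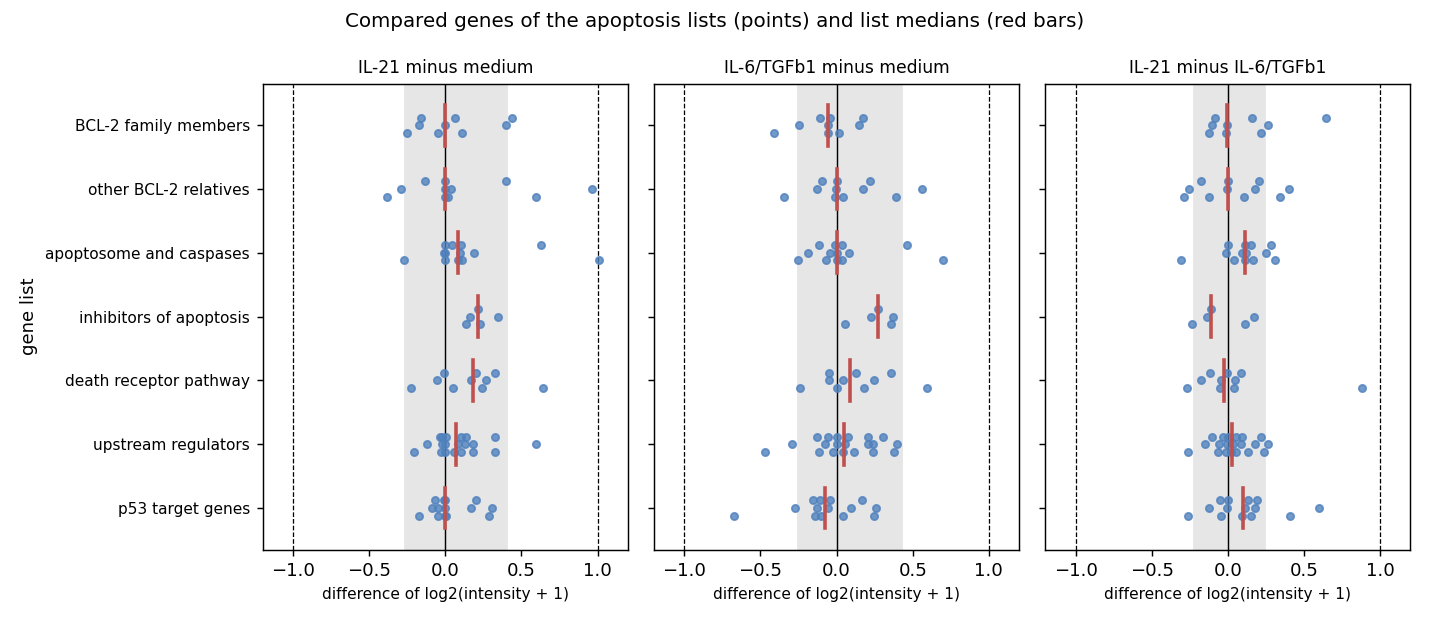
Difference of log2(intensity + 1) (horizontal axis) for the compared genes (points) of the BCL-2 family set and of 6 related gene lists (rows) in the 3 comparisons, with list medians as red bars, dashed lines at 1 and a grey band from the 5th to the 95th percentile of all compared genes. Casp6 (1.01) and Bnip3 (0.96) are the rightmost points with IL-21 against medium, and Tnfsf10 (0.88) and Bcl2l11 (0.64) those between the treated cultures.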

How the data were processed

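Per the labels' protocols, a service company prepared the RNA with Affymetrix whole-transcript labelling reagents (biotin) and ran the arrays. The authors deposited intensities on a linear scale for 28815 probe sets, between 25.5 and 20652, with array medians of 182 (IL-21), 188 (IL-6/TGFb1) and 191 (medium). The 75th percentiles ran the other way, at 812, 794 and 750 in the same order. The authors' summarization and normalization were not given in the sources used here, and the submitters' processing notes name the build mm8. Of the probe sets, 2908 were exactly equal on all 3 arrays, which puts many small differences at 0.

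Of the probe sets, 21780 had 1 annotated symbol, 1605 several and 5430 none listed. The probe set with the highest mean log2 value stood for a gene, and symbols of all 9 members matched RefSeq by Entrez identifier. Differences of log2(intensity + 1) were taken for genes whose highest value reached the median of all values, with no further normalization (numpy 2.4.6, pandas 2.3.3). Thresholds were 1 and 0.5 log2 units. Calculations were tested on simulated data. All members were named, and of each list any gene past 2-fold and the 3 genes furthest from 0 in each comparison were eligible. The members and lists were chosen with earlier results of these data known. The number of arrays limits the precision.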

Additional observations from a re-analysis of the deposited data

How the results depend on the processing

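The alternatives were quantile normalization, centring each array on its median, a pseudocount of 16, raising values under the 20th percentile, the mean over or the dimmest of a gene's probe sets, no brightness filter, and a filter at the 75th percentile. No member was past 2-fold in any of them. The differences of the members moved by at most 0.12 log2 units, and signs changed for Bbc3 and Bad alone, whose values were within 0.05 of 0. Mcl1 in IL-21 minus medium was 0.38 with quantile normalization and 0.51 with centring, so that 1 member was past 0.5 there. The filter at the 75th percentile (intensity 785) kept 5 of the 9 members and left out Bcl2l11, which leaves 0 members past 0.5 between the treated cultures. It also lowered the genes past 2-fold to 34 for IL-21 minus medium (65 in the main setting), 68 for IL-6/TGFb1 minus medium (114) and 30 for IL-21 minus IL-6/TGFb1 (50), since fewer genes were compared. With centring, the count for IL-21 minus medium was 80. Under the filter at the 75th percentile the members' median between the treated cultures was 0.16, over the 5 members kept, against 0.00 over all 9. Some list medians moved as well. In IL-21 minus medium they lay between -0.01 and 0.15 for the apoptosome and caspases, 0.11 and 0.28 for the inhibitors of apoptosis, 0.08 and 0.25 for the death receptor pathway, and 0.00 and 0.14 for the upstream regulators, with the low ends from quantile normalization and the high ends from centring. The median of the other relatives was 0.21 there and 0.26 between the treated cultures under the filter at the 75th percentile, and that of the inhibitors between the treated cultures was 0.09 with no filter (-0.11 as reported). No paired analysis was possible because each group had 1 array. For the same reason no array could be left out.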
